A study of Mus musculus with 15 samples.

Results

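The genes described here are the laminin and integrin genes of mouse liver tumors, chosen by name. Members were the non-control probes whose gene name on the array starts with Lama, Lamb or Lamc and a number, or is Itga or Itgb followed by letters or digits. The rule found 59 of the 55681 probes of the array, which stand for 42 of its 35715 gene names. Of these genes, 11 encode laminin chains and 27 encode integrin chains. The remaining 4 genes, Itgb1bp1, Itgb1bp2, Itgb3bp and Itgbl1, were matched by name and encode no integrin chain. The tumors came from mice of a C57/BL6J background that received carbon tetrachloride (CCl4), a solvent that injures hepatocytes, by intraperitoneal injection at 0.5 µl per g from the age of 6 weeks for 16 weeks, so all groups carried the CCl4 exposure. Hepatocellular carcinoma (HCC) was taken from p53f/f mice, in which both Trp53 alleles are floxed and intact, and from p53LKO mice, in which Trp53 is deleted in the liver. Tumors labelled ICC, the usual abbreviation of intrahepatic cholangiocarcinoma, were taken from p53LKO mice only. Each group had 5 tumors, and each tumor was hybridised to 1 array. The promoter that drives Cre and the age at which the hybridised tumors were taken were not given in the sources used here. The study reports that tumors arose significantly later in p53f/f mice, so age at collection may differ between the HCC groups. The study names male mice for the HCC comparison, and the sex of the mice with ICC was not given in the sources used here.

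Laminins are trimers of an alpha, a beta and a gamma chain and form one of the sheets of a basement membrane, the layer on which epithelial, endothelial and muscle cells rest. Integrins are pairs of an alpha and a beta chain that span the cell membrane and bind laminin, collagen, fibronectin and related proteins, or counter-receptors on other cells. The healthy liver lobule has little continuous basement membrane along its sinusoids, whereas bile ducts and vessels rest on a laminin layer. Laminins with the alpha3 chain and their receptor integrin alpha6beta4 anchor epithelia in hemidesmosomes.

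Levels are given throughout as log2 of the signal of a probe relative to the 75th percentile of its array, and levels of different probes were not set against each other. Values of single tumors are listed in a fixed order of the mice: 3681, 3715, 3716 and the tumors T1 and T2 of 3717 for p53f/f HCC, then 3731, 3733, 3975, 3976 and 5283 for p53LKO HCC, and 3731, 3733, 3976, 3977 and 5283 for p53LKO ICC. Thus 2 of the p53f/f HCC share a mouse, and 4 of the mice gave both an HCC and an ICC. The scanner software called between 37.0% and 70.1% of an array's probes well above background. The share was 55.1% to 70.1% in p53f/f HCC and 42.5% to 47.0% in ICC, and within p53LKO HCC it was lowest, 37.0% and 46.4%, in those of mice 5283 and 3976, the pair of that group hybridised in the lower row of a slide. The 3 p53LKO HCC in the upper row had 61.0% to 62.1%. All 5 p53f/f HCC were in the upper row and all 5 ICC in the lower row. Row and group thus cannot be told apart in this share, and row is unevenly spread in both comparisons below. Of the 885 member spots, 1 carried an outlier flag and was left out, and no member was saturated. The Trp53 probe read -1.01 ± 0.28 in p53f/f HCC, -3.09 ± 0.46 in p53LKO HCC and -3.07 ± 0.70 in ICC (SD, n = 5 each), although the array files place this probe on chromosome 17 and whether it reads the gene or a copy was not tested.

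The tumor labels were set against marker genes. Of 9 hepatocyte markers, 0 rose and 5 fell in ICC against p53LKO HCC, among them Hnf4a, a regulator of hepatocyte genes, by 2.03, and the mean level of the list was 6.36 to 6.83 in p53LKO HCC and 3.53 to 6.10 in ICC. Albumin (Alb) was nevertheless well above background in all 5 ICC. Of 8 cholangiocyte markers tested, 3 rose in ICC, the keratins Krt19, by 4.67, and Krt7, and the surface protein Epcam, at least 94-fold higher since no p53LKO HCC was well above background for it, and Slc10a2, a bile acid transporter, fell by 2.09. Of all genes tested in this comparison 12.3% rose and 15.5% fell, by the thresholds given below. The RNA came from whole tumor tissue, in which fewer cells of a type and less RNA per cell cannot be told apart.

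The array measures each gene with short probes, and the files give positions on mm9 for 51 of the 59 member probes. Below are 30-base stretches of the probes of the member with the largest fold changes, Lamc3 (chromosome 2, 31801996 to 31802055, plus strand), and of Itgb4, a member that rose in ICC (chromosome 11, 115869666 to 115869725, plus strand). Each is written 5′ to 3′ as the probe is printed, and the capitals mark AATAAA, the signal that precedes the cleavage of messenger RNA, which 9 of the 59 member probes and 10.1% of all probes of the array hold in this orientation (13.5% on either strand, with 1 motif searched and no other to overlap it).
Lamc3: tgattctgaggaAATAAAggacccttttcc
Itgb4: tgttctgcacttAATAAAaggttttgctac

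Itgam (chromosome 7) and Itga1 (not placed on mm9 by the array files) are shown because their probes disagreed. The first 30 bases of each probe follow in the order of brightness, and the capitals mark an uninterrupted run of CA repeats.
Itgam, brightest: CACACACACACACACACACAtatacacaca
Itgam, second: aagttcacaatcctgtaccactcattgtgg
Itgam, dimmest: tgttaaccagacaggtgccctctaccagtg
Itga1, brightest: tcataaaagcacatttttccagcttaaatc
Itga1, second: ttgggagagagagatcaatgccttgtgtga

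Groups were compared with limma over all probes, and a gene, represented by its brightest probe, was called higher or lower where its fold change exceeded 2 with an adjusted p (Benjamini-Hochberg, over all probes) under 0.05. To compare HCC of both genotypes, p53LKO HCC were set against p53f/f HCC. Genotype and a possible difference in age cannot be told apart here. In this comparison 37 of the 42 genes were tested, 5 rose (Lamc3, Itgb3, Lamb3, Itga8 and Itga5) and 1 fell (Itgam). These are 13.5% and 2.7% of the members tested, while 5.42% of all 16849 genes tested were higher, 9% lower and 14.4% either. To compare the tumor types, ICC were compared with HCC of p53LKO mice. Here 37 genes were tested, 11 rose (among them Itgb4, Itgb8, Itga2, Itgav, Itga11, Itgax, Lama1, Itgam, Itgb7 and Itga3) and 2 fell (Lamc3 and Itga8), or 29.7% and 5.41%, with 12.3% of all 16141 genes higher, 15.5% lower and 27.9% either. The median log2 fold change of the members was 0.35 and 0.51 in the respective comparisons, against 0.09 and -0.19 for all genes tested. Groups did not overlap for 6 members in the first comparison (16.2%, all genes 18.2%) and for 8 in the second (21.6%, all genes 30.8%). The p53LKO HCC enter both comparisons, so a gene that is high or low in them moves in opposite directions in each.

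**Figure D1:**
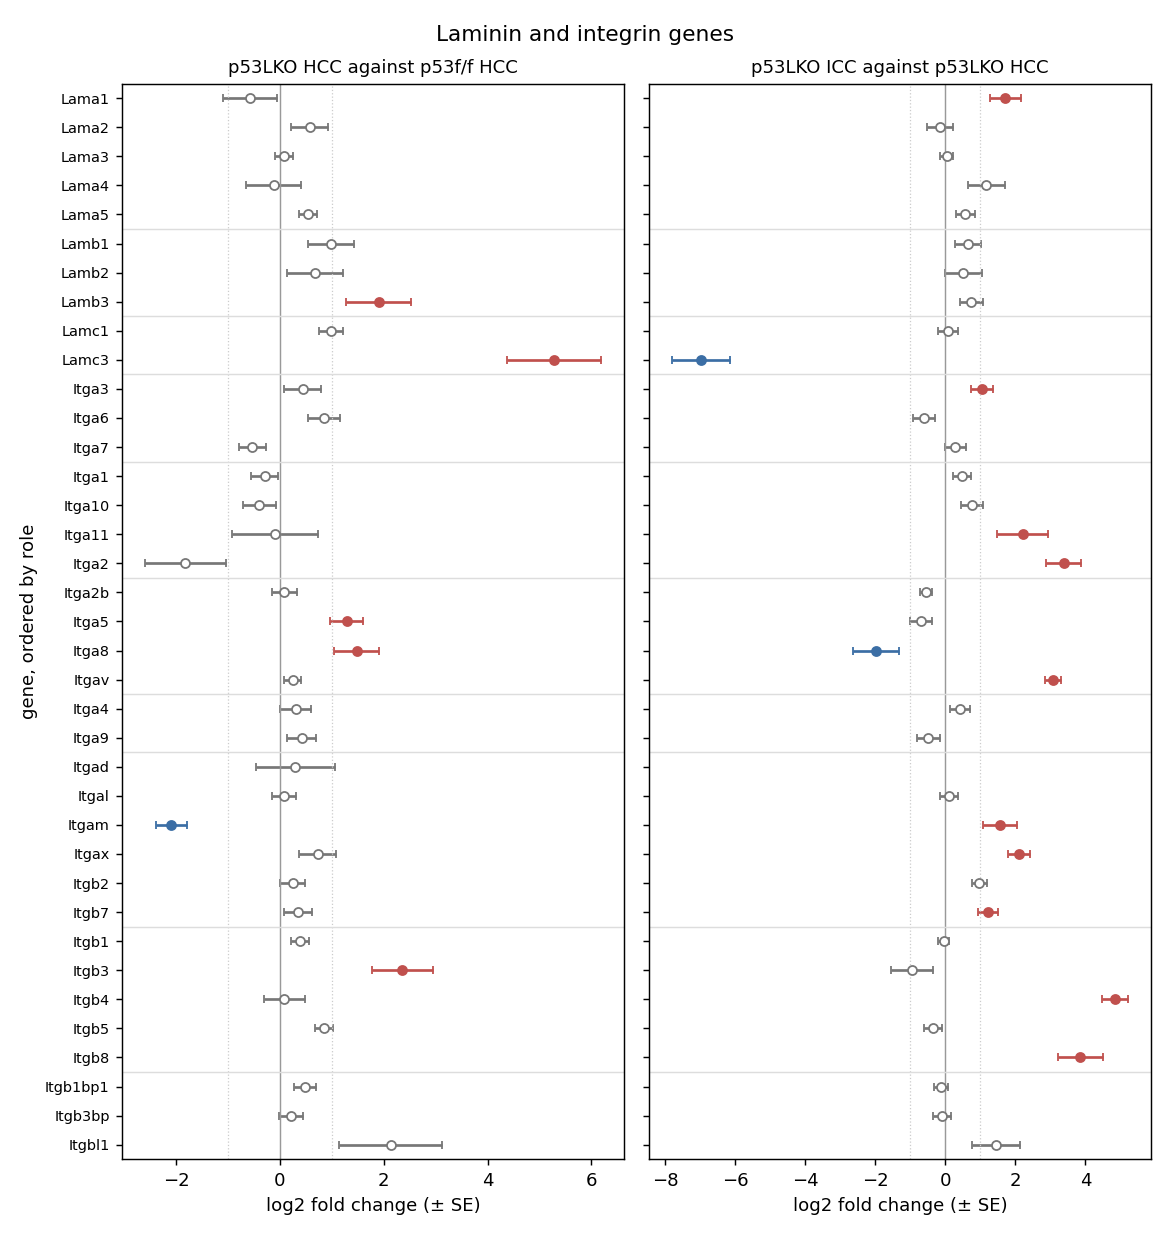
Log2 fold change of the tested genes described here with its standard error, for p53LKO HCC against p53f/f HCC (left) and p53LKO ICC against p53LKO HCC (right), with genes ordered by role. Filled points passed both thresholds (red higher, blue lower), open points did not, and dotted lines mark a fold change of 2. Lamc3 lies farthest from 0 in both panels, at 5.27 and -6.97.

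Not every member could be tested. Itgae, Itgb2l, Itgb6 and Itgb1bp2 were too dim in both comparisons, Itgb8 was so in HCC of both genotypes, and Itgad in the p53LKO tumors. A further 3 members in the first comparison (Itga2b, Itga2 and Itgad) and 4 in the second (Itga2 and Itgb8 in ICC, Itga2b and Lamc3 in HCC) were measured on enough arrays in 1 group alone. The filter alone favours a difference in such members, although Itga2b and Itgad differed by 0.09 and 0.30 in the first comparison.

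Lamc3, the laminin gamma3 chain, had the largest fold change of all members in either comparison. Its level was -4.03, -2.11, -1.67, -2.41 and -1.20 in the p53f/f HCC, 3.09, 4.14, 4.30, 4.04 and -0.65 in the p53LKO HCC, and -4.55, -3.75, -3.38, -4.54 and -3.69 in the ICC. All 5 p53LKO HCC lay above all p53f/f HCC and above all ICC, so groups did not overlap in either comparison. In 4 of the p53LKO HCC the level was between 3.09 and 4.30, and in that of mouse 5283, the array with the lowest share of probes well above background, it was -0.65, closer to the highest p53f/f HCC at -1.20 than to its own group. Lamc3 rose in p53LKO HCC by 5.27 (SE 0.90, 38.7-fold, adjusted p = 0.0015). In ICC it fell by 6.97 (SE 0.83, adjusted p = 0.000171). No ICC was well above background for Lamc3, so the fold is a bound, at least 52.2-fold lower, taken against the mean over the ICC arrays of the dimmest signal counted as well above background there. A 2-sided exact permutation test over tumors returned p = 0.00794 in each comparison, and 5 against 5 tumors allow none smaller. The test treats tumors that share a mouse as independent. In ICC against HCC, Lamc3 passed the filter through the p53LKO HCC alone, where it is high. Neither p of that comparison is therefore read as support.

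Without the HCC of mouse 5283 the values were 6.18 (adjusted p = 0.000171) and -7.88 (adjusted p = 2.89e-06). Within the upper row, with 5 p53f/f and 3 p53LKO HCC, the value was 6.13 (adjusted p = 0.00037). Within slide 1 it was 4.26 (4 against 2 tumors, adjusted p = 0.0749) and within slide 2 it was 5.05 (1 against 3, adjusted p = 0.0413). For ICC against HCC, the lower row gave -5.68 (5 against 2, adjusted p = 0.012), slide 2 gave -7.69 (4 against 3, adjusted p = 7.25e-05) and slide 1 gave -6.24 (1 against 2, adjusted p = 0.0916). Where a slide held 1 tumor of a group, here and below, the spread behind the p came from the other group alone. The direction was the same within each row and slide that held both groups, and the call was lost within slide 1 in both comparisons.

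**Figure D2:**
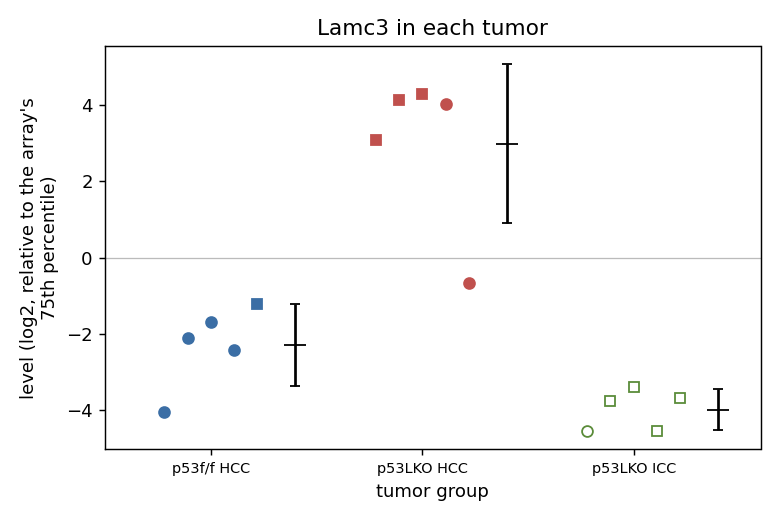
Level of Lamc3 (log2, relative to the 75th percentile of the array) in each tumor by group. Circles are arrays of slide 1 and squares of slide 2, open symbols were not well above background, and the bar is the mean ± SD (n = 5). The p53LKO HCC lie between -0.65 and 4.30, above all other tumors.

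Lamc1, the gamma1 chain shared by most laminins, had levels of 1.52 ± 0.30 in p53f/f HCC, 2.51 ± 0.43 in p53LKO HCC and 2.59 ± 0.52 in ICC (SD, n = 5). Its difference of 0.99 between the HCC (adjusted p = 0.0088) stayed just under the fold limit, and its groups did not overlap.

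Of the beta chains, only Lamb3, a beta chain of epithelial laminin, passed the thresholds. Its level was -1.14, -0.15, 0.44, -3.48 and -0.92 in the p53f/f HCC, 1.47, 1.26, 0.87, 0.13 and 0.54 in the p53LKO HCC, and 1.49, 1.48, 2.57, 1.15 and 1.28 in the ICC. It rose in p53LKO HCC by 1.90 (SE 0.62, 3.74-fold, adjusted p = 0.0366), with the p53f/f HCC of mouse 3716 at 0.44 within the range of the p53LKO HCC. This call was lost in 15 of 34 alternative settings. Leaving out the p53LKO HCC of mouse 3731, 3733 or 3975, or the p53f/f HCC of mouse 3681 or T2 of mouse 3717, gave 1.75, 1.80, 1.90, 1.88 and 1.94 with adjusted p of 0.0765, 0.0749, 0.0648, 0.068 and 0.0643. Leaving out T1 of mouse 3717, the p53f/f HCC at -3.48, gave 1.30 (adjusted p = 0.0316), the lowest value over the tumors left out in turn. Within slide 1, slide 2 and the upper row the value was 1.42, 2.12 and 2.25 (adjusted p = 0.401, 0.0648 and 0.0541). Between ICC and HCC, Lamb3 differed by 0.74 (SE 0.32, adjusted p = 0.082). Lamb1, the beta1 chain, differed by 0.98 and 0.64 in the respective comparisons, and Lamb2, the beta2 chain of vessels and nerve, by 0.67 and 0.51, with adjusted p of 0.111 or more.

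The alpha chains decide which cells a laminin binds. Lama1, the alpha1 chain best known from the embryo, was called in ICC. Its level was -0.49, 1.64, -0.87, 0.43 and 0.26 in the p53f/f HCC, 0.23, -0.69, -1.76, 0.52 and -0.23 in the p53LKO HCC, and 1.43, 1.09, 2.03, 1.75 and 0.32 in the ICC. It rose by 1.71 (SE 0.44, 3.27-fold, adjusted p = 0.0101), and the ICC of mouse 5283 at 0.32 lay within the range of the HCC. Within the lower row the value was 1.18 (adjusted p = 0.106), within slide 2 it was 2.04 (adjusted p = 0.0281) and within slide 1 it was 1.28 (adjusted p = 0.268). Lama5, the alpha5 chain of many adult epithelia and vessels, differed by 0.55 between the HCC (adjusted p = 0.0365, under the fold limit) without overlap, and by 0.57 between ICC and HCC (adjusted p = 0.1). Lama3, the alpha3 chain of epithelial laminin, was measured by 2 probes that did not pass. Its brighter probe lay between -1.43 and -0.73 in all 15 tumors and differed by 0.09 and 0.04, while the dimmer probe differed by -0.50 and 1.24 (adjusted p = 0.321 and 0.122). Lama2 and Lama4, the alpha2 chain of muscle and the alpha4 chain of vessels, differed by 0.57 and -0.12 between the HCC and by -0.15 and 1.17 between ICC and HCC (adjusted p of 0.0949 or more).

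**Figure D3:**
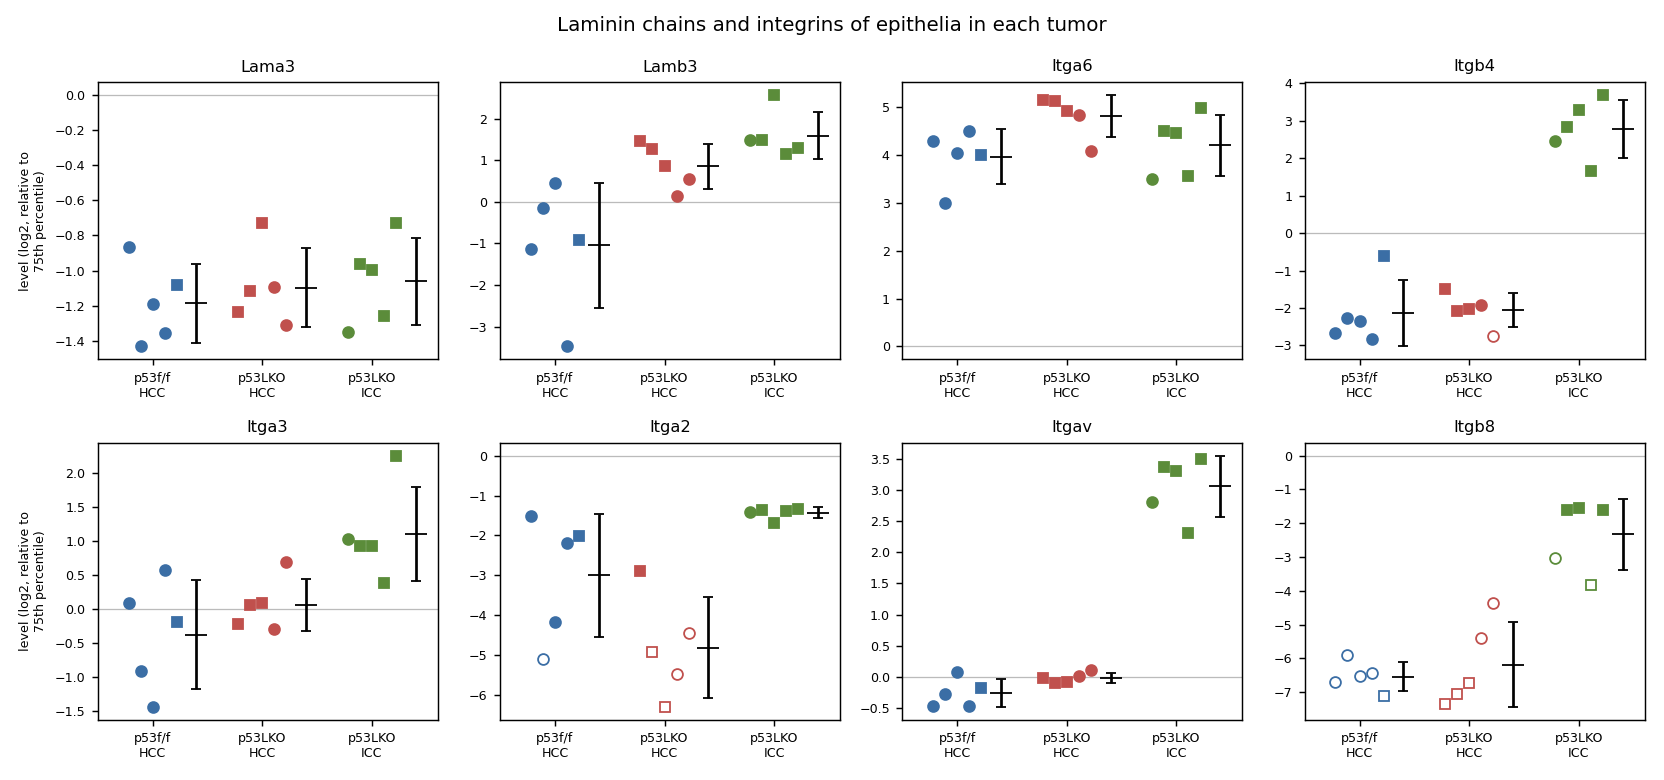
Level (log2, relative to the 75th percentile of the array) in each tumor of the laminin chains Lama3 and Lamb3 and of 6 integrin chains of epithelia. Circles are arrays of slide 1 and squares of slide 2, open symbols were not well above background, and bars are the mean ± SD (n = 5). Itgb4, Itga2, Itgav and Itgb8 are above all p53LKO HCC in every ICC, while Lama3 and Itga6 overlap.

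Among the receptors of laminin, Itgb4, the beta4 chain that pairs with alpha6 alone and binds the keratin network, differed most in ICC. Its level was -2.66, -2.25, -2.35, -2.84 and -0.62 in the p53f/f HCC, -1.49, -2.09, -2.03, -1.91 and -2.76 in the p53LKO HCC, and 2.47, 2.82, 3.28, 1.66 and 3.69 in the ICC. It rose by 4.84 (SE 0.37, 28.6-fold, adjusted p = 1.44e-05) and all 5 ICC lay above all HCC of both genotypes. The call held in all 32 alternative settings, with values from 3.98 to 5.21, and within slide 1, slide 2 and the lower row it was 4.81, 4.73 and 5.12. Between the HCC, Itgb4 differed by 0.09 (SE 0.40, adjusted p = 0.883). Its partner Itga6 was at 3.96 ± 0.57, 4.81 ± 0.44 and 4.20 ± 0.64 (SD, n = 5) in p53f/f HCC, p53LKO HCC and ICC, and its differences of 0.85 and -0.61 did not pass (adjusted p = 0.0505 and 0.139). Itga3, the alpha3 chain, which pairs with beta1 and binds laminins with alpha3 or alpha5, had levels of 0.09, -0.92, -1.45, 0.57 and -0.19 in the p53f/f HCC, -0.22, 0.05, 0.08, -0.30 and 0.68 in the p53LKO HCC, and 1.02, 0.92, 0.93, 0.39 and 2.26 in the ICC. It rose in ICC by 1.05 (SE 0.33, 2.06-fold, adjusted p = 0.0235), close to the fold limit, with 1 HCC (mouse 5283) at 0.68 above the lowest ICC. The call was lost in 12 of 33 settings, and leaving out the ICC of mouse 5283 gave 0.76 (adjusted p = 0.0231), the HCC of mouse 3976 gave 0.95 (adjusted p = 0.053) and the HCC of mouse 3731 gave 0.98 (adjusted p = 0.0504). Within slide 1, slide 2 and the lower row the value was 0.83, 1.15 and 0.91 (adjusted p = 0.498, 0.0681 and 0.215). Itga7, the laminin receptor of muscle, differed by -0.53 and 0.29 (adjusted p = 0.141 and 0.465).

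Of the 4 collagen-binding alpha chains, 0 were called between the HCC and 2 rose in ICC (50%, all genes 12.3%). Itga2, the alpha2 chain of epithelia and platelets, was well above background in all 5 ICC and in 1 of 5 p53LKO HCC. Its level was -1.51, -5.10, -4.17, -2.20 and -2.02 in the p53f/f HCC, -2.91, -4.93, -6.31, -5.48 and -4.46 in the p53LKO HCC, and -1.41, -1.37, -1.68, -1.39 and -1.34 in the ICC. The ICC lay close together, between -1.68 and -1.34, and above all p53LKO HCC. Itga2 rose in ICC by 3.38 (SE 0.50, 10.4-fold, adjusted p = 0.000556), a size that rests on HCC signals mostly not well above background and was 1.36 after normexp background correction. Between the HCC it differed by -1.82 (SE 0.77, adjusted p = 0.094). Itga11, the alpha11 chain of fibroblasts that bind fibrillar collagen, had levels of 1.10, -3.01, -2.18, -1.80 and -0.55 in the p53f/f HCC, 0.72, -2.68, -1.30, -0.87 and -2.79 in the p53LKO HCC, and -0.11, 0.67, 2.0, -0.54 and 2.09 in the ICC. It rose in ICC by 2.21 (SE 0.73, 4.61-fold, adjusted p = 0.0293), with groups that overlap. The call for Itga11 was lost in 16 of 32 settings. Leaving out the ICC of mouse 3733, 3976 or 5283, or the HCC of mouse 3733, 3975 or 5283, gave 2.24, 1.91, 1.89, 1.88, 2.23 and 1.85, with adjusted p between 0.0513 and 0.0713. Within slide 1, slide 2 and the lower row the value was 1.72, 2.14 and 2.65 (adjusted p = 0.299, 0.103 and 0.0602), and with the mouse as a block it was 2.57 (adjusted p = 0.0746). Of 9 markers of stellate cells and fibroblasts, 5 also rose in ICC (Col1a1, Lum, Dcn, Thy1 and Pdgfrb) and 0 fell. The share that rose was 55.6%, against 12.3% of all genes. The mean level of that list ran from 0.46 to 2.20 in p53LKO HCC and from 1.80 to 2.89 in ICC, and its part in the Itga11 difference was not tested.

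Itga10, the alpha10 chain of cartilage, differed by -0.39 and 0.76 (adjusted p = 0.358 and 0.0611), and its second probe gave -0.44 and 0.85. Itga1, the alpha1 chain of vessel walls and stroma, depended on the probe. By its brightest probe it differed by -0.29 and 0.47 (adjusted p = 0.414 and 0.162). The second probe had levels of 0.91, 0.56, 0.28, 0.80 and 1.14 in the p53f/f HCC, -1.03, -1.11, -1.66, -1.41 and -1.79 in the p53LKO HCC, and 0.03, 0.58, 0.02, 0.53 and -1.48 in the ICC. In p53LKO HCC it fell by 2.14 on the log2 scale (SE 0.22, adjusted p = 0.000105) and in ICC it rose by 1.34 (SE 0.36, adjusted p = 0.0129). Both probes carry the same transcript accession and neither is placed on mm9 by the array files.

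Integrins that bind the RGD sequence of fibronectin, vitronectin and latent TGF-beta differed between tumor types in their alphav and beta8 chains. Itgav, the alphav chain, had levels of -0.47, -0.27, 0.07, -0.47 and -0.18 in the p53f/f HCC, -0.02, -0.11, -0.09, 0.01 and 0.11 in the p53LKO HCC, and 2.81, 3.37, 3.30, 2.31 and 3.50 in the ICC. It rose in ICC by 3.08 (SE 0.23, 8.44-fold, adjusted p = 1.28e-05), the ICC and HCC were far apart, and all 33 alternative settings kept the call with values from 2.75 to 3.45. The second Itgav probe gave 2.81 (adjusted p = 2.65e-05), so both probes showed it. Itgb8, a partner of alphav that releases active TGF-beta, had levels of -6.70, -5.90, -6.53, -6.43 and -7.11 in the p53f/f HCC, -7.36, -7.05, -6.74, -5.39 and -4.37 in the p53LKO HCC, and -3.01, -1.60, -1.56, -3.84 and -1.61 in the ICC. No HCC of either genotype and 3 of 5 ICC were well above background for Itgb8. The fitted value of 3.86 (SE 0.64, adjusted p = 0.000967) is therefore read as a bound, at least 3.94-fold higher in ICC. Within slide 1, with 1 ICC, Itgb8 gave 1.86 (adjusted p = 0.155), and within slide 2 and the lower row it gave 4.90 and 2.55 (adjusted p = 0.00173 and 0.0372). After normexp background correction it was 1.28.

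Other chains of this class were higher in p53LKO HCC than in p53f/f HCC. Itgb3, the beta3 chain of endothelium and platelets, which pairs with alphav and alphaIIb, had levels of -0.57, -0.08, 1.73, 1.03 and -0.06 in the p53f/f HCC, 3.38, 2.58, 0.92, 2.92 and 4.04 in the p53LKO HCC, and 0.57, 1.67, 2.85, 1.26 and 2.77 in the ICC. It rose in p53LKO HCC by 2.36 (SE 0.59, 5.12-fold, adjusted p = 0.0111), and the p53LKO HCC of mouse 3975 at 0.92 lay within the range of p53f/f HCC. The second Itgb3 probe gave 1.32 (adjusted p = 0.0365). Within the upper row the value was 1.88 (adjusted p = 0.0603), within slide 1 it was 2.95 (adjusted p = 0.0384) and within slide 2 it was 2.35 (adjusted p = 0.211). Of 9 endothelial markers, 0 rose and 2 fell in p53LKO HCC against p53f/f HCC (Stab2 by 1.17 and Tek by 1.06). The share that fell was 22.2%, against 9% of all genes, and the part of endothelium in the Itgb3 values was not tested. Itga5, the alpha5 chain of the fibronectin receptor, had levels of -1.09, -0.27, -0.27, -1.25 and -1.75 in the p53f/f HCC, 0.25, 0.41, 0.09, 0.04 and 1.02 in the p53LKO HCC, and -0.79, -0.43, 0.03, -1.01 and 0.53 in the ICC. It rose in p53LKO HCC by 1.29 (SE 0.31, 2.44-fold, adjusted p = 0.00991) and the HCC groups did not overlap. Within slide 1 and the upper row Itga5 gave 1.25 and 1.18 (adjusted p = 0.119 and 0.0358), the call was also lost within slide 2 (adjusted p = 0.0612), and normexp background correction took it under the fold limit at 0.84. Between ICC and HCC the difference of -0.70 did not pass (adjusted p = 0.0847).

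Itga8, the alpha8 chain of mesenchymal cells and the receptor of nephronectin, was called in both comparisons. Its level was -1.03, 0.46, -0.24, -0.69 and 0.64 in the p53f/f HCC, 1.90, 0.08, 2.13, 1.18 and 1.27 in the p53LKO HCC, and -0.68, -2.90, 0.98, 0.18 and -0.92 in the ICC. It rose in p53LKO HCC by 1.48 (SE 0.43, 2.79-fold, adjusted p = 0.0221) and in ICC it fell by 1.98 (SE 0.65, 3.95-fold, adjusted p = 0.0279), and the groups overlapped in both. The first call was lost in 13 of 34 settings and the second in 11 of 32. For the first, leaving out the p53LKO HCC of mouse 3731 or 3975 or the p53f/f HCC of mouse 3681 or T1 of mouse 3717 gave 1.33, 1.28, 1.27 and 1.35 (adjusted p = 0.0512, 0.0524, 0.0528 and 0.0557). For the second, leaving out the HCC of mouse 3731 or 3975 gave -1.83 and -1.78 (adjusted p = 0.0597 and 0.0656). Within slide 1, slide 2 and the upper row the first value was 1.60, 0.72 and 1.54 (adjusted p = 0.0617, 0.642 and 0.065), and within slide 1, slide 2 and the lower row the second was -1.90, -2.04 and -1.89 (adjusted p = 0.0968, 0.124 and 0.157). Of the 9 stellate cell and fibroblast markers, 1 rose in p53LKO HCC (Lum, by 1.69, adjusted p = 0.0327) and 0 fell, and in ICC 5 rose and 0 fell. The shares that rose were 11.1% and 55.6%, against 5.42% and 12.3% of all genes. The part of stellate cells in the Itga8 values was not tested.

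The remaining beta chains differed less. Itgb5, a partner of alphav, was at 4.56 ± 0.13 (SD, n = 5) in HCC of p53f/f mice and 5.40 ± 0.29 in those of p53LKO mice, a difference of 0.85 without overlap (adjusted p = 0.0039, under the fold limit), and differed by -0.35 in ICC. Itgb1, the beta1 chain shared by most of the matrix receptors, differed by 0.39 and -0.05 by its brightest probe (adjusted p = 0.0934 and 0.836) and by 0.82 and -0.43 by its second (adjusted p = 0.00114 and 0.137), so the common partner stayed within 2-fold. Itga2b, the platelet alphaIIb chain, was well above background on 1 p53f/f HCC array, 3 p53LKO HCC arrays and no ICC array, and its differences of 0.09 and -0.55 stayed within 2-fold (adjusted p = 0.813 and 0.0251). Of the 3 platelet markers tested with it, 1 rose in p53LKO HCC (33.3%, all genes 5.42%), Pf4 by 1.62 (adjusted p = 0.0293), and 0 of 3 were called in ICC. Itgb6, an alphav partner of injured epithelium, was by its brightest probe well above background on 2 p53f/f HCC arrays and on no p53LKO array. On 1 of these 2, that of T1 of mouse 3717, the spot was the flagged one and was left out. The second Itgb6 probe was well above background on no array.

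Among the leukocyte integrins, Itgax and Itgb7 rose in ICC, and Itgam did so by 1 of its probes. Itgax, the CD11c chain of dendritic cells and some macrophages, had levels of 0.12, 0.70, 1.03, 0.58 and 1.48 in the p53f/f HCC, 2.58, 1.06, 1.27, 0.84 and 1.81 in the p53LKO HCC, and 3.28, 3.72, 3.92, 3.41 and 3.78 in the ICC. It rose in ICC by 2.11 (SE 0.31, 4.31-fold, adjusted p = 0.000528) and all 5 ICC lay above all p53LKO HCC. Itgb7, which pairs with alpha4 to bind the mucosal addressin and with alphaE to bind E-cadherin, had levels of -0.21, -0.18, -0.47, -1.07 and -0.33 in the p53f/f HCC, 0.71, -0.42, -0.38, -0.38 and -0.04 in the p53LKO HCC, and 1.04, 1.32, 1.66, 1.06 and 0.51 in the ICC. It rose in ICC by 1.22 (SE 0.27, 2.33-fold, adjusted p = 0.00499), with 1 HCC, that of mouse 3731 at 0.71, above the lowest ICC, and with the mouse as a block it was 1.16 (adjusted p = 0.0568). Itgb2, the beta chain common to the leukocyte integrins, differed by 0.97 without overlap (adjusted p = 0.00553, just under the fold limit), and Itgal, the LFA-1 alpha chain, by 0.11 (adjusted p = 0.747). Between the HCC, Itgax, Itgb7, Itgb2 and Itgal differed by 0.08 to 0.73 and did not pass, and another Itgal probe gave -0.76 (adjusted p = 0.00763). Within slide 1, with 1 ICC, the values were 1.95 for Itgax and 1.25 for Itgb7 (adjusted p = 0.136 and 0.245), and within slide 2 they were 2.07 and 1.17 (adjusted p = 0.00701 and 0.0487).

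Marker genes of the cells that carry these integrins did not move as 1 block. Of 7 macrophage markers tested 0 were called in either comparison, and their mean level ran from 1.22 to 3.12 in p53LKO HCC and from 0.80 to 3.19 in ICC. For dendritic cells 1 of 5 markers rose in ICC (Clec9a, by 1.91) with a mean level from -0.71 to -0.0042 in p53LKO HCC and from -0.74 to 0.48 in ICC, and Xcr1 was not well above background on any array. Of 8 T and NK cell markers 2 rose in ICC (Cd3d by 2.08 and Cd3g by 1.84) and Cd4 fell by 2.76, of 4 B cell markers 2 rose (among them Ms4a1), and of 5 neutrophil markers 2 fell (Cxcr2 and Elane). In p53LKO HCC against p53f/f HCC, 2 of 5 neutrophil markers rose (S100a8 by 1.84 and S100a9 by 2.10) and 0 fell. Of 5 dendritic cell markers 0 rose and 2 fell (Flt3 by 1.79 and Siglech by 1.02). Among T and NK cell markers 1 of 8 rose, and among B cell markers 1 of 5 fell. Of all genes tested, 5.42% were higher and 9% lower between the HCC, and 12.3% and 15.5% in ICC. The part of these cells in the levels of Itgax and Itgb7 was not tested.

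Itgam, the CD11b chain of macrophages and neutrophils, has 3 probes, and the brightest is the one with the CA repeats. Its levels were 6.05, 7.25, 6.92, 6.60 and 6.55 in the p53f/f HCC, 4.01, 5.22, 4.88, 4.89 and 3.94 in the p53LKO HCC, and 6.80, 6.84, 5.64, 6.95 and 4.50 in the ICC. By this probe, in p53LKO HCC, Itgam fell by 2.09 on the log2 scale (SE 0.30, adjusted p = 0.000565) and in ICC it rose by 1.56 (SE 0.48, adjusted p = 0.0215). The first value was -2.29, -1.84 and -1.97 within slide 1, slide 2 and the upper row (adjusted p = 0.02, 0.123 and 0.0031). The second was lost in 13 of 34 settings, among them within slide 1, slide 2 and the lower row (2.39, 1.28 and 1.73) and without the ICC of mouse 3731, 3733 or 3977 (1.40, 1.39 and 1.36, adjusted p = 0.0505, 0.0536 and 0.0509). All 34 probes of the array with at least 8 CA repeats in a row were tested, and 33 of them were lower in p53LKO HCC (97.1%, against 16% of all probes) and 33 higher in ICC (97.1%, against 12.9%), with medians of -2.16 and 1.66. The second Itgam probe differed by -0.31 and 0.81 (adjusted p = 0.235 and 0.00793), and the dimmest by -1.06 and 0.10 (adjusted p = 0.00434 and 0.734). The Itgam values of the brightest probe are thus shared by nearly all repeat probes of different genes, and without Itgam the members numbered 5 higher and 0 lower between the HCC, and 10 higher and 2 lower in ICC.

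**Figure D4:**
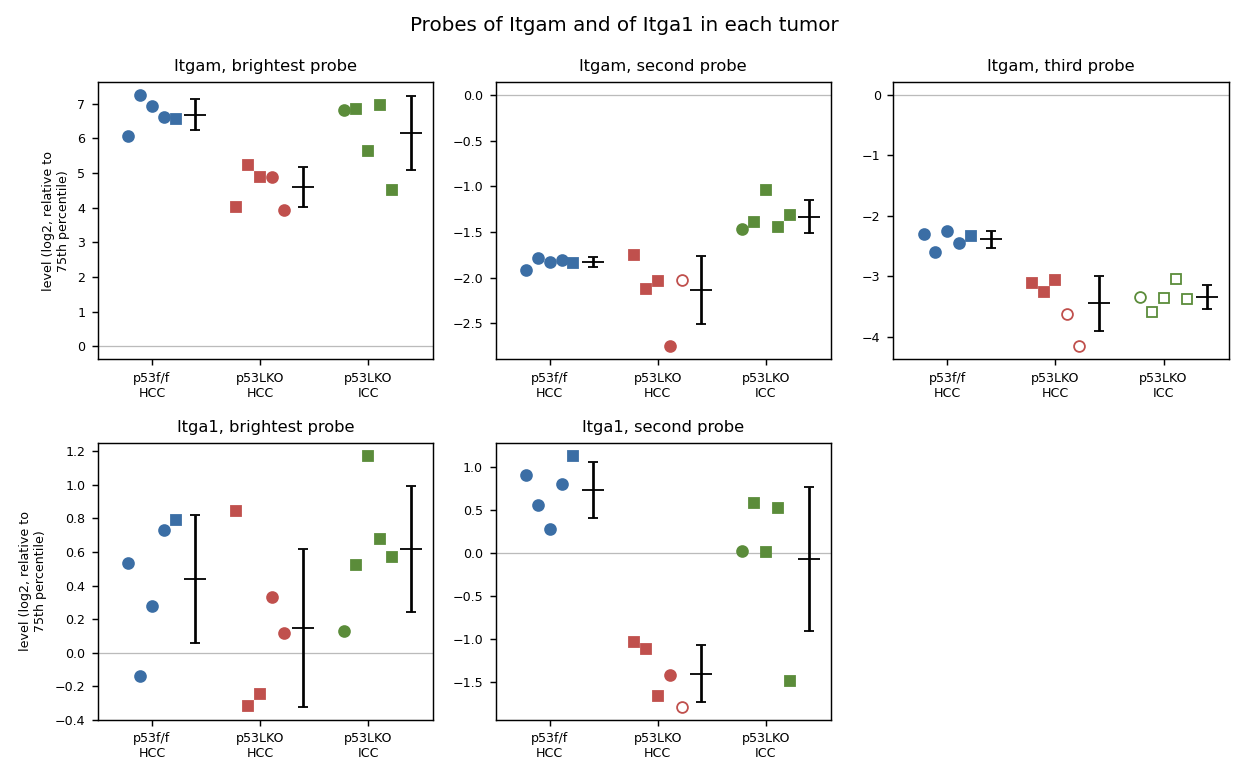
Level (log2, relative to the 75th percentile of the array) in each tumor of the 3 probes of Itgam and the 2 probes of Itga1, each with its own axis. Circles are arrays of slide 1 and squares of slide 2, open symbols were not well above background, and bars are the mean ± SD (n = 5). The brightest and the dimmest Itgam probe and the second Itga1 probe are lower in every p53LKO HCC than in any p53f/f HCC, while the second Itgam probe and the brightest Itga1 probe overlap.

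Further members stayed under the thresholds. Itga4 and Itga9, which bind the vascular adhesion molecule Vcam1 and tenascin respectively, differed by 0.30 and 0.42 between the HCC and by 0.41 and -0.48 in ICC. Itgad was well above background on 3 p53f/f HCC arrays, 2 p53LKO HCC arrays and no ICC array. Of the genes that are no integrin chain, Itgb1bp1, a regulator of beta1, and Itgb3bp, a centromere protein, differed by at most 0.49 by their brightest probes, and a dimmer Itgb1bp1 probe gave -0.09 and -0.60 (adjusted p = 0.768 and 0.0973). Itgbl1, a secreted protein with integrin-like repeats, differed by 2.13 and 1.45 with adjusted p of 0.122 and 0.105. The Itgbl1 levels spread from -6.20 to -0.44 in p53f/f HCC alone.

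Ligands of integrins other than laminin were counted in the same way. Of 20 tested in ICC against HCC, 10 rose and 2 fell (50% and 10%, all genes 12.3% and 15.5%), with a median of 1.29 against -0.19 for all genes. The largest were osteopontin (Spp1), a ligand of alphav integrins, at 4.73 (adjusted p = 1.28e-05) and Madcam1, the mucosal addressin bound by alpha4beta7, at 4.31 (adjusted p = 0.00232), while vitronectin (Vtn), a plasma protein made by hepatocytes, fell by 1.57. The other gene called lower, Icam4, was not well above background in any ICC and allows no fold. In p53LKO HCC against p53f/f HCC, 2 of 19 rose (Madcam1 by 2.22, and Icam4, too dim on all but 1 of the p53f/f HCC arrays for its size to be given) and 1, the fibrinogen chain Fga, fell by 1.33. These were 10.5% higher and 5.26% lower, against 5.42% and 9% of all genes. Of 16 partners of laminin in the basement membrane, 3 rose and 2 fell in p53LKO HCC (18.8% and 12.5%, all genes 5.42% and 9%). Agrin (Agrn), a laminin-binding proteoglycan, rose by 1.76 (adjusted p = 0.00104), the collagen chain Col4a1 by 1.11 and the collagen-binding protein Sparc by 1.04, whereas Col4a4 fell by 1.89 and Fras1, not well above background in any p53LKO HCC, was at least 3.08-fold lower. In ICC 1 of 13 rose, the collagen chain Col4a5 by 4.71 (adjusted p = 0.000193), and 1 fell, nidogen (Nid1), which links laminin to collagen, by 1.10. Each share was 7.69%, below the 12.3% higher and 15.5% lower of all genes.

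Laminin receptors other than integrins, with the hemidesmosome genes, held 1 gene called in p53LKO HCC of 9 tested, the laminin alpha5 receptor Bcam at 1.185 (adjusted p = 0.0472). In ICC of 8 tested, Bcam rose by 1.12 and the syndecan Sdc4 fell by 1.11. The shares were 11.1% higher and 0% lower between the HCC (all genes 5.42% and 9%), and 12.5% each in ICC (all genes 12.3% and 15.5%). Plectin (Plec), which ties beta4 to keratin, differed by 0.05, and Col17a1, the hemidesmosome collagen, was not well above background in any ICC. Of 25 genes of integrin activation and focal adhesions, Lims2 was the only one to pass both thresholds in p53LKO HCC, at 1.09, and in ICC Tns3 rose by 1.05 while Lims2 fell by 2.55 and Tns1 by 1.37. These were 4% higher and 0% lower between the HCC, and 4% and 8% in ICC, each below the share of all genes.

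In the 4 mice that gave both tumors, values can be set side by side within the animal. Itgb4 was higher in the ICC than in the HCC of the same mouse by 3.96 to 6.45, the largest in mouse 5283, whose HCC was not well above background for it. Itgav was higher by 2.83 to 3.48 and Itgax by 0.69 to 3.08 in the same 4 mice, whereas Itga11 was higher in the ICC of 3 and its difference ran from -0.83 to 4.88. No such differences are given for Lamc3, Itgb8 and Itga2, since most or all tumors of 1 type were not well above background. With the mouse as a block, the fit gave 10 genes higher and 2 lower, and Lamc3 was at -6.50 (adjusted p = 0.00862).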

How the data were processed

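RNA of 15 tumors was hybridised to 1-colour Agilent arrays, read with Agilent Feature Extraction 10.7.3.1. The deposited scanner files hold the processed signal intensity of each spot, which the software had corrected for background. The authors also deposited a set of log2 values, the same signals relative to the 75th percentile and centred on a median per probe (correlation with the rebuilt values 0.99995 to 0.99998). It served only as an alternative for the HCC comparison, because HCC and ICC columns were centred on different arrays.

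Here log2 intensity minus the 75th percentile of the non-control probes of each array was averaged over spots of a probe, without spots flagged as outliers. A probe was tested where 3 or more arrays of 1 group were well above background. Tests were limma 3.58.1 (R 4.3.3, lmFit and eBayes) on the groups compared, with Benjamini-Hochberg adjustment over all probes. Standard errors are those of limma. Scripts were tested on simulated data. Figures were drawn with matplotlib 3.10.9 under Python 3.11.15. The number of arrays limits the precision, and arrays of tumors from 1 mouse are not independent.

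All members are named by role, with every tumor given for Lamc3 and for members past both thresholds, and dimmer probes given where their call or direction differs. Some members and markers are counted but not reported here by name. The members and lists were chosen with earlier results of these data known. Tumors of 4 mice are paired across tumor types by the mouse numbers in the labels (correlation of deviations -0.1427 to 0.0655, against -0.2627 to 0.2842 for 21 other pairs). Alternatives changed scaling, background correction, filter, probe choice, test, threshold, blocks and samples. Switching Itgam or Itga1 to another probe and keeping flagged spots were chosen after seeing the data.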

Additional observations from a re-analysis of the deposited data

Results flagged for a closer look

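In each group of 5 tumors, the highest or lowest level was singled out where its gap to the nearest other tumor exceeded 0.71 of the range of the group. This held for 9 of 125 gene and group combinations, and about 6.2 would be so by chance. In the p53LKO HCC of mouse 5283, Lamc3 was at -0.65 (the others 3.09 to 4.30) and Itgb2l, not well above background, at -2.58. In the ICC of mouse 3976, Itga2 was at -1.68 (the others -1.41 to -1.34), Lamb1 at 3.74 and Lamb3 at 2.57. Itgb1bp1 was at 1.32 in the ICC of mouse 3731. Among p53f/f HCC, Itga10 was at -0.95 in mouse 3716, Itgb4 at -0.62 in tumor T2 of mouse 3717 and Lamb1 at -0.0845 in mouse 3681.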

How the results depend on the processing

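No called gene changed direction under any alternative run. Of the 5 genes higher in p53LKO HCC than in p53f/f HCC, the count became 19 with scaling to the spike-in probes, which moved the median of all genes by 0.74, 3 with the slide as a block, 1 within slide 1, 1 within slide 2, 3 by the methods' t-test and 2 by the Mann-Whitney test after adjustment, 8 without a fold limit, 2 at an adjusted p under 0.01, 7 with the mean of both tumors of mouse 3717 in place of each (the same 5 with Lamc1 and Itgbl1), and 3 to 7 with 1 tumor left out. It was 3 without the p53LKO HCC of mouse 3731 or 3975 or the p53f/f HCC of mouse 3681. The count of 1 lower became 2 with all 15 arrays in 1 model, 2 with the mean of the probes of a gene, 0 with the next Itgam probe, 2 with the dimmer Itga1 probe, and 1 to 2 with 1 tumor left out, 2 without the p53LKO HCC of mouse 3731 or the p53f/f HCC of mouse 3715. Leaving out 1 tumor also added calls to genes near a threshold, as for Lamc1 (1.01 to 1.11 without the p53LKO HCC of mouse 5283 or 3733 or the p53f/f HCC of mouse 3715, 3716 or T1 of 3717). Lamc3 was at 4.26 within slide 1 (adjusted p = 0.0749) and 4.84 to 6.18 with 1 tumor left out. Of the 11 genes higher in ICC, 6 remained in count where every array had to be well above background, 3 within slide 1, 7 at an adjusted p under 0.01, 15 with scaling to the 75th percentile of common probes (those well above background on every array), 12 with their median, 12 after quantile normalization, and 9 to 12 with 1 tumor left out. The count of 2 lower became 1 with scaling to probes well above background on all arrays (75th percentile), without a filter, with the row as a block, within slide 2, within the lower row, by the adjusted t-test and Mann-Whitney test, at an adjusted p under 0.01 and without the HCC of mouse 3731 (range 1 to 2), 0 within slide 1 and with every array well above background, and 3 after quantile normalization and without a fold limit. Lamc3 was at -6.24 within slide 1 (adjusted p = 0.0916) and -7.88 to -6.64 with 1 tumor left out. With the row as a block, 6 members were called between the HCC, 4 of them called in the same direction without it. In ICC 10 were called with that block, 8 of them called in the same direction without it. The cause of these changes was not tested.

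With the mouse as a replicate block, ICC against HCC gave 10 higher and 2 lower. Itga11 (2.57, adjusted p = 0.0746) and Itgb7 (1.16, adjusted p = 0.0568) lost their call, Itgbl1 gained one, and no other call changed. No paired analysis was possible because p53LKO HCC and p53f/f HCC share no mouse.

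Over all probes, 1312 were higher and 5774 lower in p53LKO HCC, against 9813 and 2313 with the spike-in scaling, 630 and 7941 with the 75th percentile of probes well above background on every array used, 771 and 7333 with their median, 1542 and 3710 after quantile normalization and 930 and 1962 after normexp. In ICC 4225 were higher and 4390 lower, against 6241 and 2253 with the 75th percentile of those probes, 5136 and 3015 with their median, and 4343 and 4201 with the spike-in scaling.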
